A study of Mus musculus with 5 samples.

Results

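Major histocompatibility complex (MHC) class II antigen presentation genes were described on 5 arrays of mouse gut. The 10 genes H2-Eb1, H2-Ab1, H2-Aa, H2-DMa, H2-DMb2, H2-Oa, Cd74, Ciita, Ctss and Itgax were chosen by name around H2-Eb1, whose log2 values on these same 5 arrays were already known. Their levels are therefore a description and are not tested. A probe set naming the gene alone was found for 9 of the 10, out of 19938 such genes on the array. H2-DMb2 shares its probe set with H2-DMb1 and has no level of its own. A filter was set at the median level over all genes, 7.41 as a log2 value. Of the 9 measured genes 5 passed it, and H2-DMa, H2-Oa, Ciita and Itgax did not. A gene was counted as higher or lower between 2 arrays from a difference of 0.32 on the log2 scale, called the threshold below.

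All groups were healthy male ddY mice, an outbred stock, aged 5 weeks, dosed by mouth 2 times, 0.5 hours apart. Gut was taken 4 hours after the last dose. GA+GA received gum arabic, the vehicle, at both times. LG21+GA received Lactobacillus gasseri OLL2716 (LG21), a probiotic strain, and gum arabic. GA+Asp received gum arabic and aspirin. Tep+Asp received teprenone, a mucosal protective drug, and aspirin, and LG21+Asp received LG21 and aspirin. RNA came from part of the gut, and the labels do not state how many mice an array stands for. With 1 array per group, no difference below can be set against the spread between animals, and none has a p-value. Precision is limited by the number of arrays. In bulk tissue, fewer cells of a type and less RNA per cell cannot be told apart.

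Class II molecules are pairs of an alpha and a beta chain that carry peptides from ingested proteins to CD4 T cells. H2-Aa and H2-Ab1 encode the chains of H2-A, and H2-Eb1 the beta chain of H2-E. The invariant chain, encoded by Cd74, fills the groove until cathepsin S (Ctss) trims it. The H2-DM chaperone (H2-DMa with H2-DMb1 or H2-DMb2) then exchanges its last fragment for peptide, and H2-O, whose alpha chain is H2-Oa, restrains H2-DM. Ciita encodes the coactivator that turns class II genes on through factors bound to the X and Y boxes of their promoters. Dendritic cells, B cells and macrophages carry class II constantly, and epithelium of the gut can be induced to carry it by interferon gamma. Itgax encodes CD11c, an integrin of dendritic cells and some macrophages.

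The X and Y boxes can be read in the promoters of several of these genes and of related ones. Of those shown, only H2-Eb1 and H2-Aa lie above the filter. H2-Oa, H2-Ob and H2-Eb2 lie below it and H2-DMb2 has no level of its own, so their levels cannot be compared well. The stretches are from RefSeq promoters of GRCm38.p6, written 5′ to 3′ on the strand of the gene. Capitals mark the letters AAC, read as part of the core of the X box, and the letters TGATTGG of the Y box. Where several AAC lay 20 to 30 bases before TGATTGG, one that follows GC, TT or GT was preferred. The marked AAC follows TT in H2-DMb2 and GC in the others. Binding of factors to these stretches was not tested.

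H2-Eb1: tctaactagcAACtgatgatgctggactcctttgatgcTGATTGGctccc
H2-Aa: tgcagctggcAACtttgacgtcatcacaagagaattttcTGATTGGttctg
H2-Oa: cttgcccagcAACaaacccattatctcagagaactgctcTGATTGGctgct
H2-DMb2: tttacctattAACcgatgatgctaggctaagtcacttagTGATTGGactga
H2-Ob: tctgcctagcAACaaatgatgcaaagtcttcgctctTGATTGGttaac
H2-Eb2: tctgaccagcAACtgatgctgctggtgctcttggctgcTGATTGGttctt

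They lie at chr17:34305768-34305817 (plus strand) for H2-Eb1, chr17:34287862-34287912 (minus strand) for H2-Aa, chr17:34092295-34092345 (plus) for H2-Oa and chr17:34145118-34145168 (plus) for H2-DMb2. Those of H2-Ob, the beta chain of H2-O, and of H2-Eb2, a second E beta gene, lie at chr17:34238810-34238857 and chr17:34325535-34325584, both on the plus strand. Between AAC and TGATTGG there are 25 bases in H2-Eb1 and H2-Eb2, 26 in H2-Aa, H2-Oa and H2-DMb2, and 23 in H2-Ob. The motif searched was AAC, then 20 to 30 bases, then TGATTGG, on either strand of the 300 bases from 250 before to 50 after each start. It was chosen after these promoters had been read. It was present in 1.21% of 27025 genes with a promoter and in 4 of the 7 member genes with one, while TGATTGG alone was in 9.0% of genes. These letters are not in the windows of H2-DMa, Ctss and Itgax. Promoters of H2-Ab1, Cd74 and Ciita were absent from the promoter set used and could not be read.

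H2-Eb1 had the widest spread of the class II genes. Its log2 value read 8.16 in GA+GA, 8.52 in LG21+GA, 7.57 in GA+Asp, 8.31 in Tep+Asp and 8.02 in LG21+Asp. The order was therefore LG21+GA, Tep+Asp, GA+GA, LG21+Asp and GA+Asp from high to low, and the GA+Asp array stood apart at the low end. The ends lay 0.95 apart, which is 1.94-fold, and 64 of the 9969 filtered genes (0.642%), H2-Eb1 included, had a range as large or larger. Its neighbours in that order lay between 0.14 and 0.45 apart, and without a second array none of these gaps can be set against an error.

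The chains of H2-A varied less. H2-Ab1, the A beta chain, stood at 8.00 in GA+GA, 8.11 in LG21+GA, 7.87 in GA+Asp, 7.96 in Tep+Asp and 7.80 in LG21+Asp. Its highest array was that of H2-Eb1, but its lowest was LG21+Asp, and its range was 0.30. H2-Aa, the A alpha chain, had the identical value of 8.45 in GA+GA, LG21+GA and GA+Asp, with 8.46 in Tep+Asp and 8.35 in LG21+Asp. The H2-A chains thus did not share the low value of H2-Eb1 in GA+Asp to a like extent. H2-Ea, the alpha chain gene of H2-E, was looked up after the other values were seen. It lay between 5.37 and 5.43 on all 5 arrays, below the filter, so its spread cannot be compared well with that of H2-Eb1.

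Cd74, the invariant chain, came next after H2-Eb1 in spread. It stood at 9.22 in GA+GA, 9.48 in LG21+GA, 9.05 in GA+Asp, 9.27 in Tep+Asp and 8.92 in LG21+Asp, a range of 0.56. LG21+GA was again highest, followed by Tep+Asp and GA+GA, and LG21+Asp was lowest.

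The chaperones of peptide loading hardly varied. H2-DMa stood at 7.26 in GA+GA, 7.28 in LG21+GA, 7.20 in GA+Asp, 7.27 in Tep+Asp and 7.26 in LG21+Asp. H2-Oa stood at 6.36 on 4 arrays and at 6.33 in GA+Asp. The probe set shared by H2-DMb2 and H2-DMb1 lay between 7.00 and 7.03. These levels of H2-DMa and H2-Oa were lowest in GA+Asp, by 0.06 and 0.03 against the control, sizes that 36.5% and 54.2% of filtered genes reached in either direction.

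Ciita, the coactivator, stood at 6.60 in GA+GA, 6.67 in LG21+GA, 6.48 in GA+Asp and 6.58 in both Tep+Asp and LG21+Asp. Its highest and lowest arrays were those of H2-Eb1, but its range of 0.19 was a fraction of that of H2-Eb1. Ctss, the cathepsin, stood at 8.18 on 4 arrays and at 8.34 in Tep+Asp. Itgax stood at 6.14 in GA+GA, LG21+GA and Tep+Asp, at 5.89 in GA+Asp and at 6.21 in LG21+Asp. It shared the low value of H2-Eb1 in GA+Asp and not the high one in LG21+GA.

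**Figure D1:**
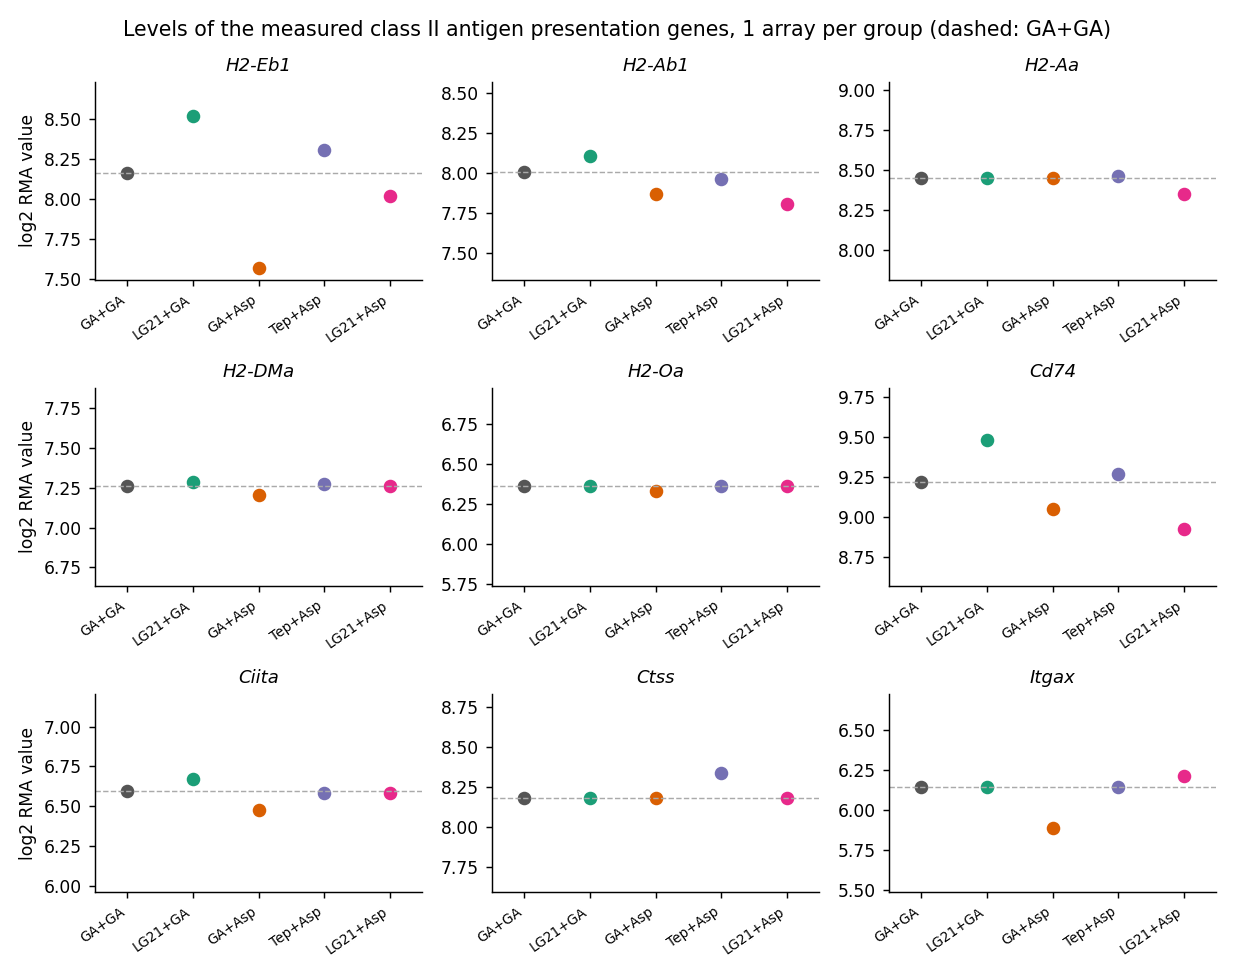
Deposited log2 RMA values (vertical axis, the same span in each panel) of the 9 measured genes on the 5 arrays (horizontal axis), 1 point per array and no error bars because each group has 1 array. H2-Eb1 runs from 7.57 in GA+Asp to 8.52 in LG21+GA and Cd74 from 8.92 in LG21+Asp to 9.48 in LG21+GA, while H2-Oa spans 0.03.

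Of the 9 genes, 5 were strictly highest in LG21+GA (H2-Eb1, H2-Ab1, H2-DMa, Cd74 and Ciita), where 13.7% of all genes and 15.5% of filtered genes were. In GA+Asp 5 were strictly lowest (H2-Eb1, H2-DMa, H2-Oa, Ciita and Itgax; 6 under the other normalizations), where 18.0% of all genes and 8.69% of filtered genes were. In LG21+Asp 3 were strictly lowest (H2-Ab1, H2-Aa and Cd74), where 15.9% of all genes and 24.3% of filtered genes were. These genes are known to share regulators and are not independent points. Among the deposited values 63.4% of probe sets had an exact tie between arrays, as had 6 of these 9 genes.

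Aspirin alone was addressed by GA+Asp against GA+GA. H2-Eb1 differed by -0.59, which is 1.51-fold lower with aspirin and the 45th lowest of 9969 filtered genes. Itgax differed by -0.26, Cd74 by -0.17, H2-Ab1 by -0.14 and Ciita by -0.12. The other members were closer to 0, with H2-DMa at -0.06, H2-Oa at -0.03 and Ctss and H2-Aa at 0.00. Of the 9, 7 were below 0, 1 above and 1 equal, with a median of -0.12. The median of all genes was 0.00, and 31.4% of all genes and 23.5% of filtered genes were below 0. Of the 9 only H2-Eb1 was lower by the threshold, where 1.51% of all genes and 0.853% of filtered genes were.

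LG21 without aspirin, LG21+GA against GA+GA, went the other way. H2-Eb1 was 1.28-fold higher (0.36, the 22nd highest of the filtered genes) and Cd74 1.20-fold (0.27, the 46th highest). H2-Ab1 differed by 0.10 and Ciita by 0.07, while H2-Aa, H2-Oa and Itgax had identical values on both arrays. As deposited 6 of the 9 were above 0 and none below, with a median of 0.03, where 38.8% of all genes and 46.4% of filtered genes were above 0. Under quantile normalization and cyclic loess 3 and 4 lay below 0, by under 0.01. H2-Eb1 was the single member higher by the threshold, as were 0.391% of all genes and 0.261% of filtered genes.

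The arrays LG21+Asp and GA+Asp, which compare LG21 with vehicle before aspirin, divided the members. H2-Eb1 was 1.37-fold higher in LG21+Asp (0.45, the 31st highest), and Itgax was higher by 0.33. Cd74 differed by -0.13, H2-Aa by -0.10 and H2-Ab1 by -0.07. The H2-A chains and the invariant chain thus lay on the other side of 0 from H2-Eb1 in this comparison, while H2-DMa (0.06) and H2-Oa (0.03) lay on the same side. Higher by the threshold were 2 of 9 members, with 1.21% of all genes and 0.502% of filtered genes. Itgax, which lies below the filter, left this count under other normalizations (0.31 and 0.30).

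With teprenone rather than vehicle before aspirin (Tep+Asp minus GA+Asp), all 9 members were above 0, by 0.01 for H2-Aa to 0.74 for H2-Eb1, with a median of 0.10. The median of all genes was 0.00, and 34.6% of all genes and 28.9% of filtered genes were above 0. H2-Eb1 was 1.67-fold higher, the 23rd highest of filtered genes, followed by Itgax at 0.26, Cd74 at 0.22 and Ctss at 0.16. Higher by the threshold was 1 of 9, H2-Eb1, with 0.993% of all genes and 0.712% of filtered genes. These last comparisons and aspirin alone share the GA+Asp array, so its low H2-Eb1 value enters each of them.

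Aspirin after LG21 (LG21+Asp minus LG21+GA) was compared on arrays other than those of aspirin alone. Cd74 was 1.47-fold lower (-0.56), H2-Eb1 1.41-fold (-0.50) and H2-Ab1 1.23-fold (-0.30), while H2-Aa differed by -0.10. Lower by the threshold were Cd74 and H2-Eb1, 2 of 9, with 1.19% of all genes and 1.02% of filtered genes. In all 6 of 9 were below 0, 1 above and 2 equal, with a median of -0.09, where 33.6% of all genes and 44.6% of filtered genes were below 0. Side by side, aspirin went with -0.59 without LG21 and -0.50 with it for H2-Eb1, with -0.17 and -0.56 for Cd74, and with -0.14 and -0.30 for H2-Ab1. The difference of these differences was 0.09 for H2-Eb1, -0.39 for Cd74, -0.17 for H2-Ab1 and 0.33 for Itgax, with a median of 0.03 over the 9. It was not tested.

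Teprenone and LG21, both before aspirin, were compared as Tep+Asp against LG21+Asp. Cd74 was 1.27-fold higher in Tep+Asp (0.34), H2-Eb1 1.22-fold (0.29), and H2-Ab1 and Ctss both differed by 0.16. Higher by the threshold was 1 of 9, Cd74, with 0.828% of all genes and 0.612% of filtered genes.

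**Figure D2:**
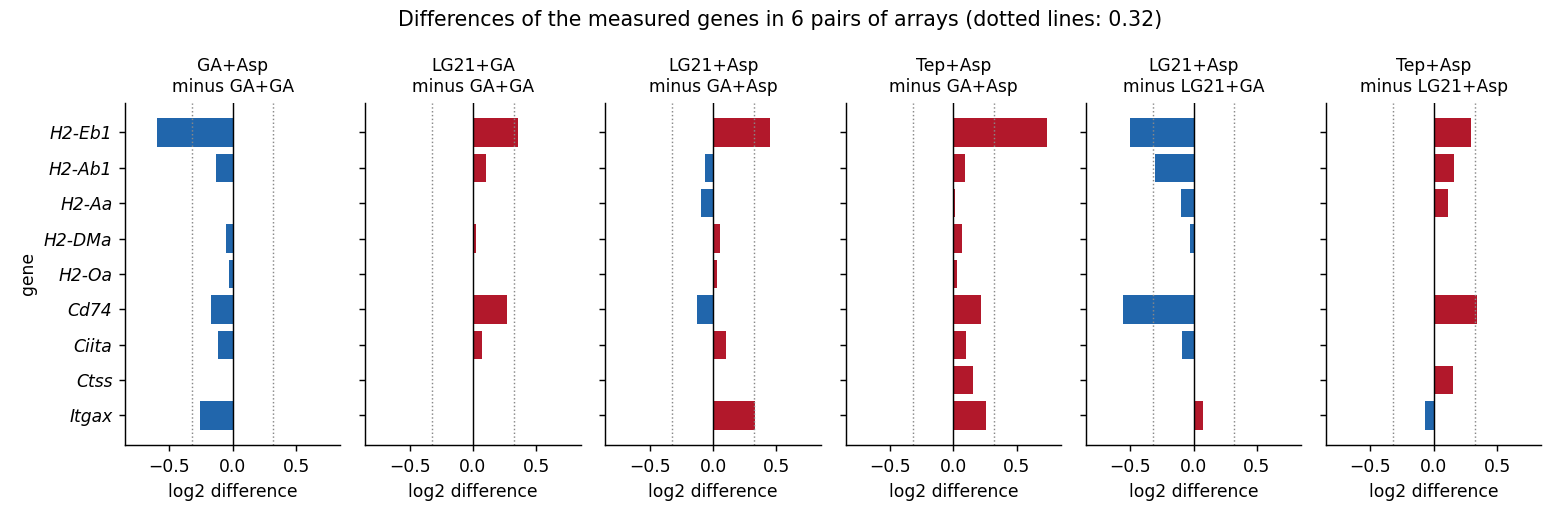
Differences of log2 values (horizontal axis) of the 9 measured genes (vertical axis) in 6 pairs of arrays, red above 0 and blue below, with dotted lines at 0.32 in each direction. H2-Eb1 passes a line in 5 of the panels, from -0.59 with aspirin alone to 0.74 with teprenone before aspirin, and H2-Aa in none.

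Further genes of the class II pathway were described from a list. Of 21 listed, from the RFX and NF-Y factors of the promoter to lysosomal proteases and costimulatory ligands, 20 were measured, and 0 passed the threshold in any of the 6 comparisons. In each comparison 0.883% to 1.32% of filtered genes and 1.41% to 2.05% of all genes passed in either direction, so a count of 0 in a list of this size is near the share over all genes. H2-Eb2, whose promoter holds the motif at the same spacing as H2-Eb1, stood at 5.79 on 4 arrays and 5.70 in GA+Asp. H2-Ob lay between 6.06 and 6.19. Rfxank, a subunit of the RFX complex, differed by 0.16 with aspirin alone, and Rfx5, another subunit, by -0.16 with aspirin after LG21.

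Class I genes present peptides from inside the cell. Of 19 listed, 16 were measured, and H2-K1, H2-D1 and H2-T23 had no probe set of their own. Past the threshold in any of the comparisons were 0 of the 16, again near the share over all genes. H2-Q4, a class I gene outside the list, stood at 8.11 in LG21+GA and 7.70 in LG21+Asp. Its range of 0.41 lies past the threshold. Nlrc5, the class I counterpart of Ciita, stood at 9.13 in GA+Asp and between 9.32 and 9.37 on the other arrays. It had its low value in GA+Asp, as H2-Eb1 did, and little difference elsewhere. Tap1, a subunit of the peptide transporter, differed by -0.30 with aspirin after LG21. Psmb9, an immunoproteasome subunit, was highest in LG21+GA (8.30) and lowest in GA+Asp (8.09). B2m, the class I light chain, stood between 12.35 and 12.49, highest in GA+GA.

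Whether other genes followed H2-Eb1 was asked as a count, since 5 arrays are too few for a correlation. A gene was said to follow if LG21+GA was strictly its highest and GA+Asp strictly its lowest array, with a range of at least 0.2. Of filtered genes 32, or 0.321%, followed, H2-Eb1 included, and 0.717% of all genes. Of the member genes H2-Eb1 alone did. The range of Ciita (0.19) fell just short, that of Psmb9 (0.21) was just inside, and Cd74 and H2-Ab1 failed because LG21+Asp was their lowest array.

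Of 20 dendritic cell genes 0 followed, and 4 had a range of at least 0.2, where 12.1% of filtered genes had. That share counts filtered genes alone, while most of this list lay below the filter. With so few followers among all genes, a count of 0 in any of these lists is near the share over all genes and shows no difference from it. Flt3, the receptor of dendritic cell growth, lay between 6.30 and 6.35 on the 5 arrays, and Zbtb46, a factor of classical dendritic cells, between 7.10 and 7.19. Xcr1, a chemokine receptor of cross-presenting dendritic cells, stood at 6.24 in both GA+GA and LG21+GA, at 5.98 in GA+Asp, 6.37 in Tep+Asp and 6.29 in LG21+Asp. Like Itgax it was lowest in GA+Asp and not highest in LG21+GA. The median difference of the list was 0.00 with aspirin alone, with 8 genes above 0 and 9 below. The summed level of the list, the log2 of the added linear values, ran only from 10.94 in GA+Asp to 10.97 in LG21+Asp. Only 2 of the 20 genes lay above the filter, which limits how far this can be read.

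Other leukocyte lists held no follower either. Among 16 macrophage genes 0 followed. Csf1r, the receptor of macrophage growth, stood at 8.42 on 3 arrays, 8.45 in Tep+Asp and 8.33 in LG21+Asp, an order it shared with H2-Aa. Adgre1, the macrophage marker F4/80, ran from 7.43 in GA+Asp to 7.57 in GA+GA. Mrc1, the mannose receptor, was 0.33 higher in Tep+Asp than in GA+Asp. In that comparison 12 of the 16 macrophage genes lay above 0 and 0 below, where 34.6% of all genes and 28.9% of filtered genes lay above 0. Ctss, like Mrc1, was highest in Tep+Asp. The 13 B cell genes had 0 followers, and Ms4a1, which encodes CD20, stood at 5.18 on 4 arrays and at 5.29 in LG21+GA. The 14 genes of T cells and innate lymphoid cells had 0. Only 1 of the 13 B cell genes and 1 of these 14 lay above the filter, which limits how far both lists can be read. Of 10 genes listed as general leukocyte genes 0 followed, but 7 were strictly highest in LG21+GA, and 9 lay above GA+GA there, with a median of 0.09. Strictly highest in LG21+GA were 13.7% of all genes and 15.5% of filtered genes, and 38.8% and 46.4% lay above GA+GA there. Ptprc, the common leukocyte antigen CD45, lay between 7.39 in GA+GA and 7.46 in LG21+GA. The summed level of the leukocyte list came to 11.43 in GA+GA, 11.53 in LG21+GA, 11.45 in GA+Asp, 11.49 in Tep+Asp and 11.46 in LG21+Asp. Lcp1, the gene of this list with the highest level, weighs most in that sum and ran from 10.10 in GA+GA to 10.25 in LG21+GA. The leukocyte list thus shared the high LG21+GA array with H2-Eb1 and Cd74 but not the low GA+Asp array. The summed level of the macrophage list was highest in Tep+Asp (12.18), and that of the B cell list was lowest in GA+Asp (9.90) and highest in LG21+Asp. The part of these cells in the class II values was not tested.

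Of 14 genes common to all epithelia 0 followed and 0 had a range of 0.2, where 0.321% and 12.1% of filtered genes did. Epcam, an epithelial adhesion molecule, lay between 9.69 in LG21+Asp and 9.86 in LG21+GA, the same ends as Cd74. Cdh1, which encodes E-cadherin, lay between 11.94 and 11.96. Of 15 gastric genes 1 followed, the gastrokine Gkn3 (9.17 in LG21+GA against 8.84 in GA+Asp). All 15 measured gastric genes passed the filter, with a median level between 13.16 and 13.19, and 8 of 16 intestinal genes did, so the tissue labelled gut held transcripts of stomach.

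Of 16 epithelial genes known to respond to microbes 1 followed, where 0.321% of filtered genes and 0.717% of all genes did. This gene, Duox2, the hydrogen peroxide producing oxidase of the mucosal surface, stood at 8.53 in GA+GA, 8.72 in LG21+GA, 8.35 in GA+Asp, 8.58 in Tep+Asp and 8.35 in LG21+Asp. All 5 arrays of Duox2 stood in the order of H2-Eb1, which held for 7 filtered genes (0.0702%), H2-Eb1 included. Its low end rests on 8.347 in GA+Asp against 8.349 in LG21+Asp, where H2-Eb1 had a gap of 0.45, so Duox2 did not set GA+Asp apart from LG21+Asp. Its maturation factor Duoxa2 stood at 8.03, 8.28, 7.79, 8.06 and 7.76 in the same sequence of groups, with LG21+Asp rather than GA+Asp at the low end. The other genes of the microbe-responsive list did not follow, and only 4 of its 16 genes lay above the filter. Pigr, the transporter of IgA, was lower by 0.51 in GA+Asp than in GA+GA and Reg3g, an antibacterial lectin, higher by 0.34, and neither was highest in LG21+GA. Both lie below the filter.

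Interferon gamma targets were not alike. Iigp1, an interferon-inducible GTPase, stood at 6.94 in GA+GA, 7.25 in LG21+GA, 6.34 in GA+Asp, 7.04 in Tep+Asp and 6.37 in LG21+Asp. It lies below the filter, and it was the 1 gene of the 17 measured on this list that followed, where 0.717% of all genes did. All its arrays stood in the order of H2-Eb1, but GA+Asp and LG21+Asp were close together. Cxcl9, a chemokine induced by interferon gamma, stood at 7.45, 7.95, 7.45, 7.42 and 7.00 in the same sequence. It was high in LG21+GA and low in LG21+Asp, as Cd74 was, with no difference between GA+GA and GA+Asp. Ifng itself lay between 5.95 and 5.97. With aspirin alone 9 of the 17 genes lay below 0 and 7 above, with a median of -0.02. Of all genes 31.4% lay below 0 and 42.4% above. With teprenone before aspirin 3 of the 17 were higher by the threshold, namely Iigp1 (0.70), Gbp7 (0.48) and Ido1 (0.43), where 0.993% of all genes and 0.712% of filtered genes were. Ido1, like Iigp1, lies below the filter.

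**Figure D3:**
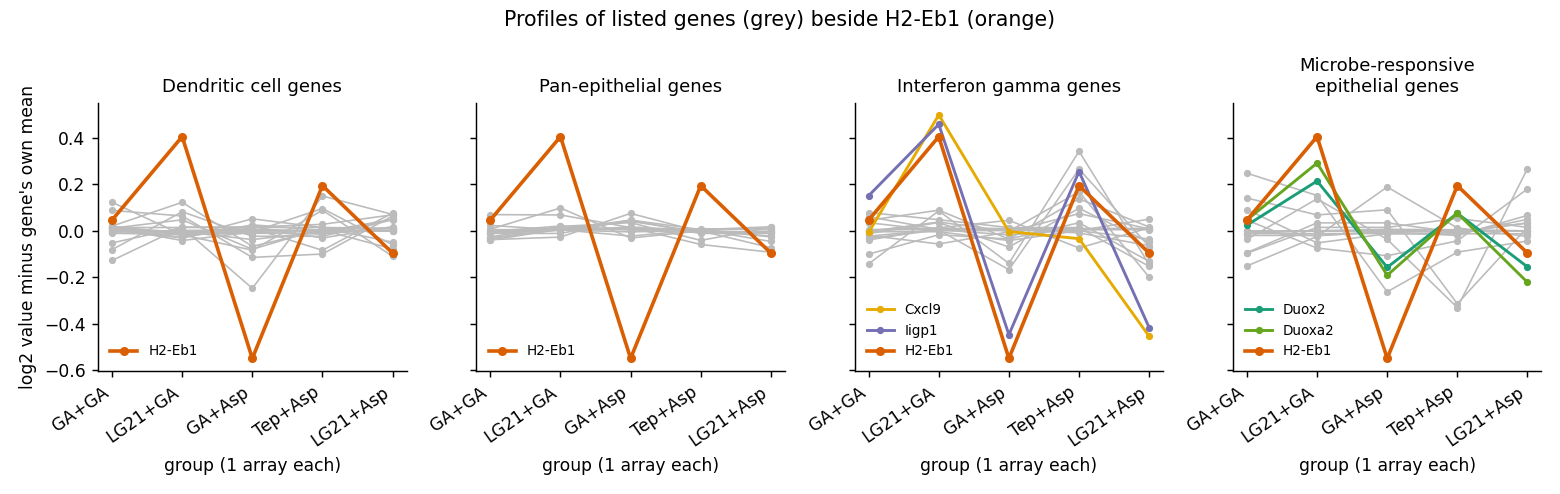
Log2 values of each gene minus its own mean over the 5 arrays (vertical axis) by group (horizontal axis), for 4 gene lists in grey with H2-Eb1 in orange in each panel and 4 genes coloured. The 14 pan-epithelial genes and all 20 dendritic cell genes span less than H2-Eb1. Xcr1, the widest of the dendritic cell genes at 0.40, dips in GA+Asp. Iigp1 and Duox2 have the same order of arrays as H2-Eb1, and Cxcl9 and Duoxa2 end lowest in LG21+Asp.

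The filtered genes nearest to H2-Eb1 were ranked by the root mean square difference of the 5 centred log2 values, where a gene equal on all arrays would score 0.321. Ly6e, a surface protein induced by interferon, was nearest at 0.123. It stood at 11.52 in GA+GA, 11.73 in LG21+GA, 10.99 in GA+Asp, 11.39 in Tep+Asp and 11.21 in LG21+Asp, and it shared both end arrays. Next came Duoxa2 (0.185), Rab3b (0.187), a GTPase of secretory vesicles, Scd1 (0.204), the stearoyl-CoA desaturase, Duox2 (0.204) and Cd74 (0.211). The 10 were completed by Mgst1 (0.211), a glutathione transferase, Clca1 (0.219), a secreted mucus protein, Ly6d (0.227) and Oasl2 (0.227), an interferon-induced gene. Cd74 was thus the single member among the 10, with H2-Ab1 at rank 40 and a score of 0.252. Of the 10, Ly6e, Rab3b, Duox2, Mgst1 and Clca1 met the rule for followers. The measure favours genes with a wide range.

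**Figure D4:**
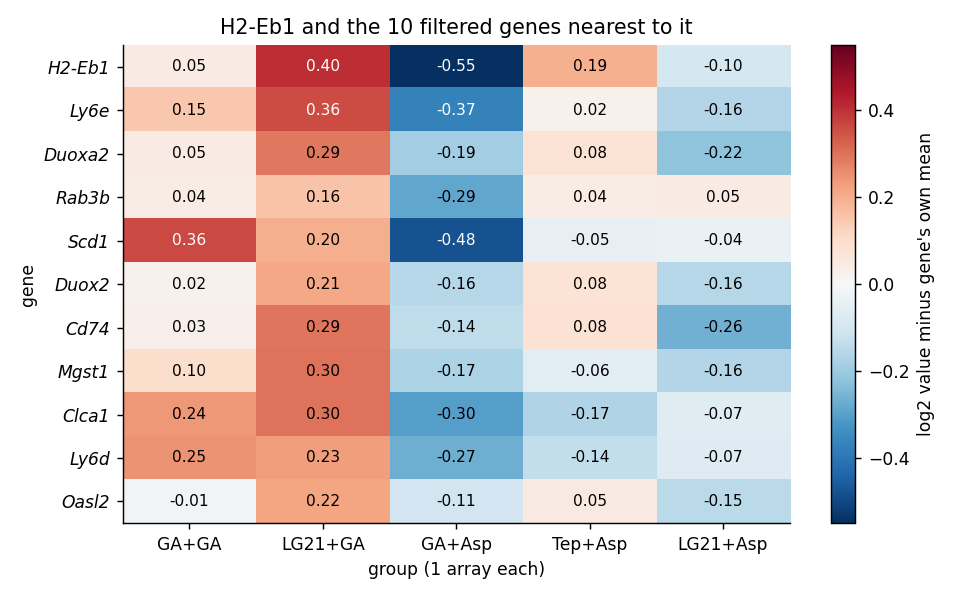
Log2 values minus the gene's own mean over the 5 arrays (colour and printed number) for H2-Eb1 and the 10 filtered genes nearest to it (rows) by group (columns). All 10 are above their mean in LG21+GA and below it in GA+Asp, and Duoxa2, Duox2, Cd74, Rab3b, Ly6e and Oasl2 are, like H2-Eb1, above it in Tep+Asp.

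The neighbours of H2-Eb1 on the chromosome were described after values were seen. Among the 15 protein-coding genes on each side of H2-Eb1 in RefSeq order on chromosome 17, 26 of 30 were measured. Of the 26, 1 (Psmb9) followed H2-Eb1, where 0.321% of filtered genes and 0.717% of all genes did. A range of at least 0.2 was found in 4, where 12.1% of filtered genes had one, though some of the 26 lay below the filter. With aspirin alone 0 of the 26 passed the threshold in either direction. Of filtered genes 1.32% did and of all genes 2.03%, so that count is near the share over all genes. The next genes on either side, H2-Aa and H2-Eb2, had ranges of 0.11 and 0.09 where H2-Eb1 had 0.95.

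**Figure D5:**
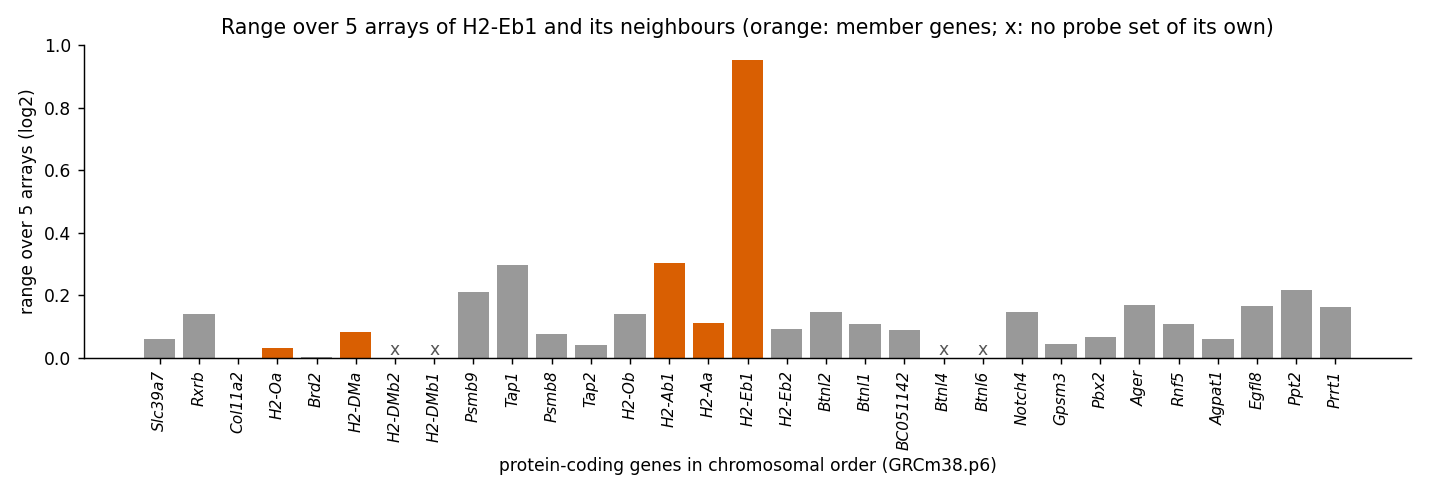
Range of the log2 values over the 5 arrays (vertical axis) for H2-Eb1 and the 15 protein-coding genes on each side of it in chromosomal order (horizontal axis), member genes in orange and genes with no probe set of their own marked x. H2-Eb1 reaches 0.95, and the next highest bars are H2-Ab1 at 0.30 and Tap1 at 0.30.

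Transcripts of other tissues also differed between these arrays. Alb, the albumin gene of hepatocytes, stood at 12.69 in GA+GA, 12.37 in LG21+GA, 7.43 in GA+Asp, 10.41 in Tep+Asp and 11.80 in LG21+Asp, and so shared the lowest array of H2-Eb1 but not its highest. The median level of the 15 measured squamous epithelial genes came to 8.58, 8.36, 8.07, 9.00 and 7.14 in the same sequence. Of the 15, 12 were strictly lowest in LG21+Asp, the lowest array of Cd74, H2-Ab1 and H2-Aa. That array was strictly lowest for 15.9% of all genes and 24.3% of filtered genes. The summed level of the squamous genes ran from 13.03 in LG21+Asp to 13.89 in Tep+Asp. The part of these tissues in the class II values was not tested.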

How the data were processed

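Per the labels, the authors deposited RMA expression values from Expression Console, while the series' design text names the Exon Array Computational Tool. RMA corrects background, equalises the distributions of the arrays and summarises probes. That the deposited values are log2 was read from the values, which run from 1.32 to 13.87. Software versions and the annotation build are not given in the sources used here, and no detection calls were used. Of 35557 probe sets, the platform annotation gave 1 symbol to 21789, several to 1621 and none to 12147. Where several probe sets named a gene alone, that of the highest mean was kept. Each member has 1. RefSeq of GRCm38.p6 gave gene order and promoters only.

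Log2 values were subtracted in 6 pairs of arrays, with no test, since each group has 1 array. The members and the 14 gene lists were chosen with earlier results of these data known. Named were the members, a few preset markers, up to 4 genes of a list with the largest difference in the comparison described, and the 10 genes nearest to H2-Eb1, leaving out predicted genes, odorant receptors and similar families. H2-DMb1 had no probe set of its own. H2-Ea, H2-Q4, Alb and the neighbouring genes were chosen after values were seen. Alternatives were thresholds of 1.5-fold and 2-fold, no filter, the 75th percentile as filter, the mean of probe sets, a range of 0.1, and quantile normalization or cyclic loess (3 iterations, limma 3.58.1, R 4.3.3). Counting was checked on simulated data in Python 3.11.15.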

Additional observations from a re-analysis of the deposited data

How the results depend on the processing

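Quantile normalization and cyclic loess on top of the deposited values moved no difference of a member by more than 0.04, and the count of members past the threshold of 0.32 changed under them in 1 comparison, LG21+Asp against GA+Asp, from 2 to 1, where Itgax left it. Under both, exact ties broke: 9 members rather than 7 lay below 0 with aspirin alone, and with LG21 alone 3 (quantile) and 4 (loess) lay below 0 where none had. The mean of probe sets changed no count, since each member has 1. At 1.5-fold the count was 1 with aspirin alone and with teprenone before aspirin, and 0 in the other 4 comparisons. At 2-fold it was 0 in all 6. Without the filter the share of all genes past 0.32 was 1.41% to 2.05% over the 6 comparisons, and 0.883% to 1.32% with it. Of listed genes other than H2-Eb1 above the filter 3 followed it (Duox2, Gkn3 and Psmb9), also under both normalizations, the mean of probe sets and at a range of 0.1, and 4 without the filter, where Iigp1 joined. The share of filtered genes that followed was 0.321%, with 0.341% under quantile normalization and 0.351% under cyclic loess. It rose to 0.823% at a range of 0.1, and without the filter 0.717% of all genes followed. The median interaction of the members was 0.03, and 0.0031 and 0.004 under the other normalizations. No paired analysis was possible because each group has 1 array, and for the same reason no array could be left out. Without detection calls, signal over background is unknown for the members below the filter.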
